A study of Mus musculus with 18 samples.

Results

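Endothelial cells of 1 region of the mouse heart, titled OR in the sample labels, were compared with endothelial cells of the other 3 regions sampled, Apex, LV and VS, pooled as one side. The OR side held 3 libraries and the pooled side 9, which made 12 of the 18 libraries of the series; the other libraries came from liver and were not used. All 12 came from wild-type adult male mice under resting conditions (labelled homeostasis), so that no genotype, agent or injury separated the groups. Poly(A) RNA was copied into full-length cDNA, amplified and sequenced as paired reads. The design text and the table's columns spell the region OZ, and the labels do not expand OR, LV or VS. The labels number the libraries of each region 1 to 3 without saying whether they came from separate animals, so the p-values measure the spread between these libraries, which may be technical. The rule that chose the 12 libraries used their labels and no measured value.

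Endothelial cells line every vessel of the heart and its chambers. Most of those in the ventricles belong to capillaries, which pass fatty acids to the beating muscle, and their growth and permeability depend on VEGF ligands and their receptors. Like other cells they carry a circadian clock, in which CLOCK and BMAL1 (gene Arntl) switch on the genes of their own repressors, among them Cry1, and they carry the sensors and effectors of the interferon response, whose genes are transcribed at a low level in healthy tissue.

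The 12 libraries held between 21590400 counts (OR 1) and 27720154 counts (Apex 2) each. The 3 OR libraries correlated with each other at r = 0.979 to 0.987 across genes on the log2 scale, and with libraries of the other regions at r = 0.962 to 0.985, so that OR lay close to the rest of the heart. Libraries that stood apart were found in VS and LV. VS 1 and VS 2 lay at opposite ends of the first principal component, which held 22.2% of the variance, LV 1 lay at the end of the second (14.0%), and the 3 VS libraries correlated at r = 0.950 to 0.971. The summed level of the endothelial markers overlapped between the sides. Pecam1, an adhesion molecule of endothelial junctions, measured 1757, 1892 and 1729 CPM (counts scaled to library size with TMM factors) in OR 1, 2 and 3, and 1645 to 2252 (median 1774) in the 9 others. Cdh5, which encodes VE-cadherin, measured 2772, 2884 and 2619.6 CPM in OR against 2443 to 3062 (median 2788). All 14 endothelial markers listed were tested, and their summed level ran from 17451 to 19639 CPM in OR and from 17457 to 21259 CPM in the others. In 2 of the 14, Kdr and Flt1, described below, all 3 OR libraries lay below all 9 others, as they did in 1.01% of all genes tested.

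No gene separated OR from the 9 other libraries at the threshold used, a Benjamini-Hochberg adjusted p under 0.05 in edgeR's quasi-likelihood test. Of 13542 genes tested, 0 (0%) passed, and the smallest adjusted p was 0.204, for Cry1. By unadjusted p under 0.05, 859 genes (6.34%) had a higher mean in OR and 838 (6.19%) a lower one. In 224 genes (1.65%) all 3 OR libraries lay above all 9 others, and in 137 genes (1.01%) all 3 lay below. Other tools on the same counts made calls: DESeq2 placed 57 genes past its adjusted threshold, 6 higher (0.0443%) and 51 lower (0.377%), and limma's voom with sample quality weights placed 1062, of which 621 were higher (4.59%) and 441 lower (3.26%). All 57 DESeq2 genes were among voom's calls, in the same direction. With VS taken off the pooled side, edgeR called 1175 of 13392 genes, 663 higher (4.95%) and 512 lower (3.82%), and with VS 2 alone left out it called 64, of which 15 were higher (0.111%) and 49 lower (0.363%). The genes described below are therefore given by their levels. By the naming rule they were the 15 in each direction with the smallest p among genes whose libraries did not overlap and whose higher side averaged at least 5 CPM, and none of these 30 passed in edgeR.

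Cry1, a repressor of the circadian clock, had the smallest p of all genes. Its level was 23.3, 27.2 and 22.3 CPM in the 3 OR libraries and 34.6 to 46.98 (median 39.4) in the 9 others, so the sides did not overlap. The mean in OR was 1.62-fold lower (log2 difference −0.70 ± 0.12 SE, edgeR adjusted p = 0.204), and the means of Apex, LV and VS were 38.9, 42.8 and 36.5 CPM. DESeq2 called it lower at an adjusted p of 2.0e-05, and over all alternatives the adjusted p ran up to 0.853, in edgeR without OR 3. Cry1 lies at chr10:85131700-85185054 (GRCm38). The 250 bases before its start, on the minus strand at chr10:85185055-85185304 (RefSeq, GRCm38.p6), are shown because they hold the sequence through which CLOCK and BMAL1 are known to act on clock genes. The capitals mark the E-box CACGTG, 60 bases before the start.
Cry1 promoter: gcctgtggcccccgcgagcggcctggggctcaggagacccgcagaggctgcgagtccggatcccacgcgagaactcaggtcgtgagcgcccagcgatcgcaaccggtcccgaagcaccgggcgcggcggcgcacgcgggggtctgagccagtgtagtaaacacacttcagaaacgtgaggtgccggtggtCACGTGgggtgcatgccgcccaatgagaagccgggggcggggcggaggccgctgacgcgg
The same 6 letters, which read alike on both strands, stood in 6.02% of the 32851 mouse promoters of this length. Of the 5 clock genes looked up in this way, Cry1 alone held them. Clock, Arntl, Nr1d1 and Dbp, described below, did not, and a match is a description of the sequence only.

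The other clock genes did not move together. Of 19 listed, 9 had a higher and 10 a lower mean, with a median log2 difference of −0.03 that became 0.16 once the length trend described below was removed; over all genes tested these medians were −0.02 and −0.01. Clock, the activator, measured 20.3, 21.9 and 22.2 CPM in OR, below every other library but VS 2; the others ran from 15.6 to 34.8 (median 33.6). Its edgeR adjusted p was 0.299, and 0.0395 without VS 2 (0.0064 to 0.933 over all alternatives). Arntl measured 25.04, 45.3 and 44.9 CPM in OR against 38.97 to 58.7 (median 47.9) in the others (adjusted p = 0.428 in edgeR). OR 1 was lower in Arntl than all 11 other libraries and higher in 2 genes that peak in the opposite phase. Nr1d1, which represses Arntl, measured 85.6, 7.41 and 21.1 CPM in OR 1, 2 and 3, and 5.86 to 38.5 (median 14.4) in the others. Dbp, an output of the clock, measured 11.9, 1.72 and 3.26 CPM in OR and 1.11 to 3.45 (median 1.94) in the others. OR 2 and OR 3 lay inside the range of the other regions for both. Without OR 1, the log2 difference of Nr1d1 went from 1.28 to −0.13. The labels give no hour of collection, and its part in these values was not tested.

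**Figure D1:**
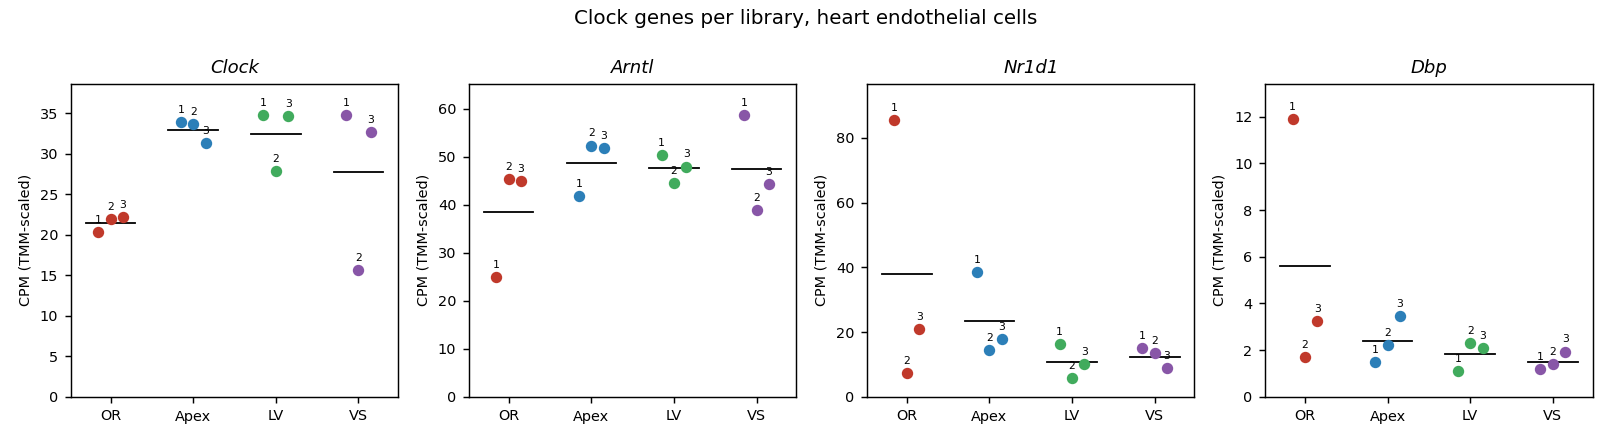
Levels of 4 clock genes in each heart library, in TMM-scaled CPM on a linear axis from 0; points are libraries with their replicate number and the black line is the mean of a region's 3 libraries. OR 1 stands at 85.6 CPM for Nr1d1 and 11.9 CPM for Dbp, while OR 2 and OR 3 lie within the range of the other regions.

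Among the 15 lower genes, Oas2 and Ddx58 belong to the interferon list and Wdfy1 to that of Toll-like receptors and adaptors; Herc6 and Gbp5, in neither list, are described with them. Wdfy1, known to join Toll-like receptor signalling, had the largest difference of the 15: 10.2, 7.64 and 8.26 CPM in OR against 14.6 to 34.1 (median 23.7) elsewhere, 2.67-fold lower (log2 difference −1.42 ± 0.26 SE, edgeR adjusted p = 0.268). It varied on the pooled side too, where Apex 1 and Apex 2 measured 14.7 and 14.6 CPM and Apex 3 and VS 3 32.5 and 34.1 CPM. Wdfy1 lies at chr1:79702262-79776143. Oas2, which makes the 2-5A messenger that activates RNase L, measured 56.6, 54.2 and 42.8 CPM in OR and 65.5 to 90.4 (median 78.3) in the others (log2 difference −0.63 ± 0.12, edgeR adjusted p = 0.268), and lies at chr5:120730333-120749886. Neither gene overlapped between the sides. Ddx58, which encodes the viral RNA sensor RIG-I, measured 51.4, 58.2 and 53.5 CPM against 61.7 to 78.9 (median 74.3). Herc6, the mouse ligase that attaches ISG15, measured 24.6, 23.1 and 23.6 CPM against 26.3 to 40.2 (median 35.9). Gbp5, a guanylate-binding protein of the interferon gamma response, measured 19.3, 21.2 and 22.7 CPM against 24.3 to 43.7 (median 31.3). In each of these 5 genes the highest OR library lay below the lowest of the other 9, as the naming rule required. DESeq2 called each of them lower, as it did 0.377% of all genes, and the edgeR adjusted p was 0.268 or 0.275.

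**Figure D2:**
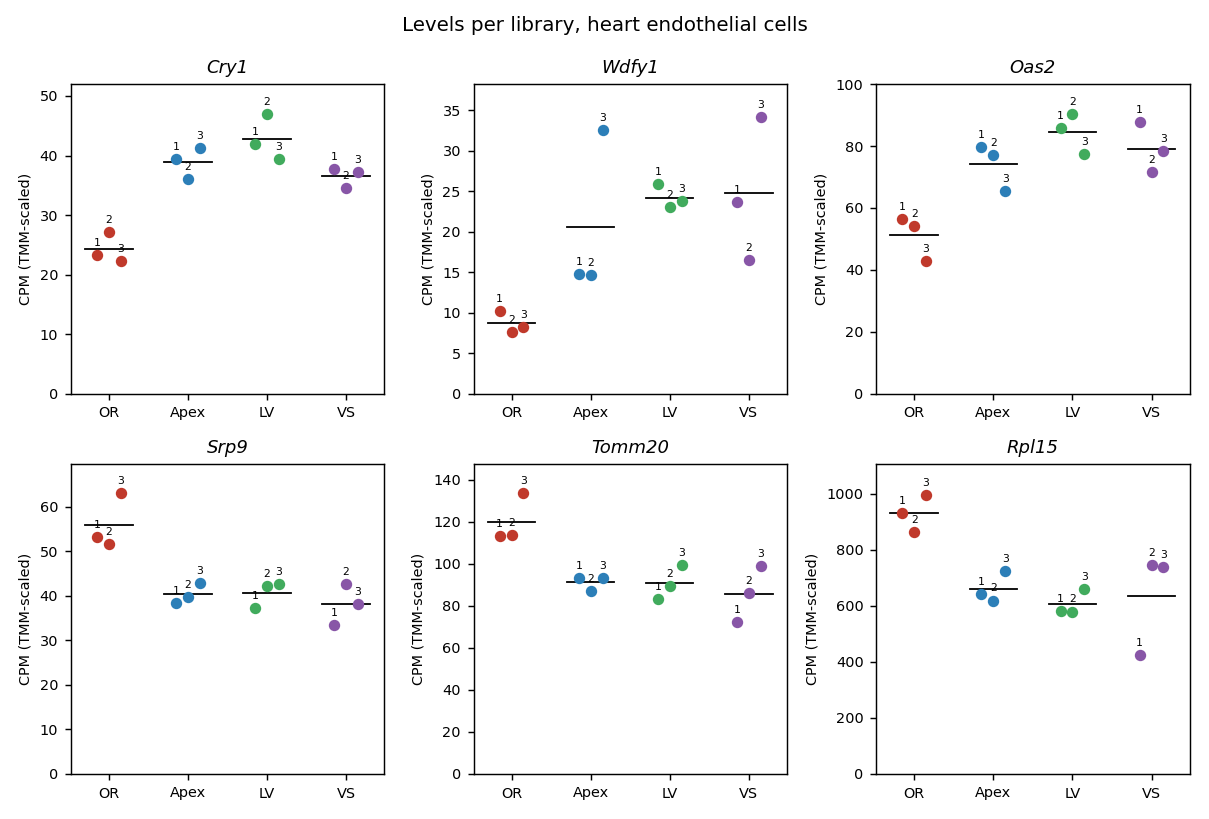
Levels of 6 named genes in each heart library, in TMM-scaled CPM on linear axes from 0; points are libraries with their replicate number and the black line is the mean of a region's 3 libraries. The OR points lie below all others for Cry1, Wdfy1 and Oas2 and above all others for Srp9, Tomm20 and Rpl15.

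The interferon list as a whole had no common direction. Of its 28 genes 26 were tested, 13 higher and 13 lower, with a median log2 difference of −0.04. By unadjusted p under 0.05, 7 were lower and 2 higher, where 6.19% and 6.34% of all genes were. In edgeR 0 passed. DESeq2 called 2 lower (0.377% over all genes), and edgeR without VS called 6 lower (3.82% over all genes). Ifih1, the sensor MDA5, measured 63.7, 59.2 and 68.00 CPM in OR and 66.4 to 93.8 (median 77.5) elsewhere, with OR 3 above VS 2, the lowest of the others. Parp14, an interferon-induced ADP-ribosyltransferase, measured 52.9, 44.9 and 41.5 CPM against 44.6 to 75.5 (median 63.2), and Gbp7 measured 132, 123 and 151 CPM against 119 to 240.0 (median 199.5); in both the lowest of the 9 was VS 2. With the length trend described below removed, the log2 differences of Oas2 and Gbp5 were −0.53 and −0.62, and those of Ddx58, Parp14 and Ifih1 −0.26, −0.21 and −0.13. The promoters of Gbp5 and Gbp7, neighbours on chromosome 3, are shown because they alone of the 5 found in the RefSeq table among the 7 looked up held the interferon-stimulated response element, searched on both strands as 2 runs of GAAA with any 2 bases between them. The capitals mark it, reversed and complemented, 165 bases before the start of Gbp5 (chr3:142496684-142496933, plus strand, GRCm38.p6) and 53 bases before that of Gbp7 (chr3:142530086-142530335, plus strand).
Gbp5 promoter: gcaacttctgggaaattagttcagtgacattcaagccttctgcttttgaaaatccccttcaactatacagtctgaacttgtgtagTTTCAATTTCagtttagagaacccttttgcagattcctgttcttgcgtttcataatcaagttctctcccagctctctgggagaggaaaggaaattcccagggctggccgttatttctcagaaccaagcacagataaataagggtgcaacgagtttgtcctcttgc
Gbp7 promoter: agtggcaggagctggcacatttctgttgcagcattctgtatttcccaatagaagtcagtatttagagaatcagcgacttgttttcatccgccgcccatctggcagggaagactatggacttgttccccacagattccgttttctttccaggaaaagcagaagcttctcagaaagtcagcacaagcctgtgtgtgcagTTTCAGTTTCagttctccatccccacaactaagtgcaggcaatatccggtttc
These letters stood in 2.98% of all promoters of this length, and a match is a description of the sequence only.

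The folds of the other 9 lower genes were 1.34 to 1.58. Gfpt1, the rate-limiting enzyme of hexosamine synthesis, measured 10.5, 11.5 and 9.44 CPM in OR and 13.7 to 18.6 (median 16.3) elsewhere. Setd7, a lysine methyltransferase, measured 11.8, 14.3 and 11.4 CPM against 17.2 to 27.05 (median 19.4). Hdac9, a class IIa histone deacetylase, was nearly equal in the OR libraries, at 21.1, 20.97 and 20.9 CPM, and measured 23.8 to 37.9 (median 29.7) in the others. For all 3 the groups did not overlap, and edgeR's adjusted p was 0.275. Iars, the cytosolic isoleucyl-tRNA synthetase, measured 33.04, 33.9 and 38.4 CPM against 42.01 to 60.9 (median 49.7). Slc29a3, a lysosomal nucleoside transporter, measured 12.5, 12.7 and 11.8 CPM against 14.9 to 21.3 (median 18.01). The remaining 4 were Mtmr4, a phosphoinositide phosphatase of endosomes, Ube4a, a ubiquitin ligase, Golga4, a golgin of the trans-Golgi network, and Lrch3, whose OR libraries also lay below all others. All 15 lower genes were called lower by DESeq2 and voom and without VS, and 8 of them without VS 2. Over all genes these settings called 0.377%, 3.26%, 3.82% and 0.363% lower. The 15 were chosen by p from the same counts, so these calls are not separate support.

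The folds of the 15 higher genes were 1.32 to 1.56. Srp9, a subunit of the signal recognition particle, measured 53.2, 51.6 and 63.00 CPM in OR and 33.3 to 42.8 (median 39.8) in the others (log2 difference 0.49 ± 0.10 SE, edgeR adjusted p = 0.275), and lies at chr1:182124737-182132415. Rpl15, a protein of the large ribosomal subunit, measured 931, 862 and 996 CPM against 424 to 744 (median 640.2), the lowest being VS 1. Sar1b, the GTPase that builds COPII vesicles, measured 63.6, 67.6 and 73.6 CPM against 41.5 to 57.7 (median 52.5). In these 3 genes every OR library lay above every other library. Trnau1ap, a factor of selenocysteine incorporation, measured 78.2, 71.2 and 76.7 CPM against 46.7 to 68.2 (median 55.02). Tomm20, the import receptor of the outer mitochondrial membrane, measured 113, 114 and 134 CPM against 72.2 to 99.4 (median 89.5). In both of these, too, the sides did not overlap. Mrpl24, a mitochondrial ribosomal protein, measured 44.8, 45.2 and 49.1 CPM against 29.6 to 42.6 (median 34.1), and Ppa2, the mitochondrial pyrophosphatase, 23.3, 20.97 and 26.00 CPM against 14.5 to 18.2 (median 17.8), again without overlap.

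Gstt2, a glutathione S-transferase, had the largest fold of the 15, 1.56 (log2 difference 0.64 ± 0.16), with 56.6, 57.7 and 62.7 CPM in OR and 28.3 to 54.8 (median 35.9) in the others; its mean was 33.7 CPM in Apex, 36.0 in LV and 44.1 in VS. Chek2, the DNA damage checkpoint kinase, measured 59.9, 54.7 and 68.3 CPM against 38.7 to 49.8 (median 46.6). Otulin, the deubiquitinase of linear ubiquitin chains, measured 33.8, 30.1 and 33.7 CPM against 18.8 to 27.1 (median 24.6). The groups did not overlap in any of them, and the adjusted p in edgeR was 0.275 for each. Sertad3, Gpn3, Cdk5rap3, Ngdn and Kcmf1, a ubiquitin ligase, completed the set, with folds of 1.32 to 1.45. DESeq2 called 5 of the 15 higher, voom all 15, and edgeR 15 without VS and 3 without VS 2. Over all genes these settings called 0.0443%, 4.59%, 4.95% and 0.111% higher. These 15, too, were chosen by p from the same counts, so the calls are not separate support.

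The higher genes were mostly short and the lower genes mostly long. Effective transcript length, read from the ratio of count to TPM, had a median of 1358 bases in the 224 genes whose OR libraries lay above all others, 5101 bases in the 137 that lay below, and 2942 bases over all genes. From the shortest to the longest of 5 equal groups of genes the median log2 difference of OR went from 0.26 through 0.09, −0.01 and −0.11 to −0.23. In the shortest group 597 genes were higher and 15 lower by unadjusted p under 0.05, and in the longest group 5 were higher and 544 lower. The slope was a property of each library, not of OR alone. The median deviation of the shortest group minus that of the longest was 0.30, 0.26 and 0.56 on the log2 scale in OR 1, 2 and 3, and 0.54 and 0.22 in VS 2 and VS 3. It was −0.31 to −0.07 in the 6 Apex and LV libraries and −0.74 in VS 1. The OR libraries thus shared the direction of VS 2 and VS 3, and no Apex or LV library did. The source of the slope was not tested.

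**Figure D3:**
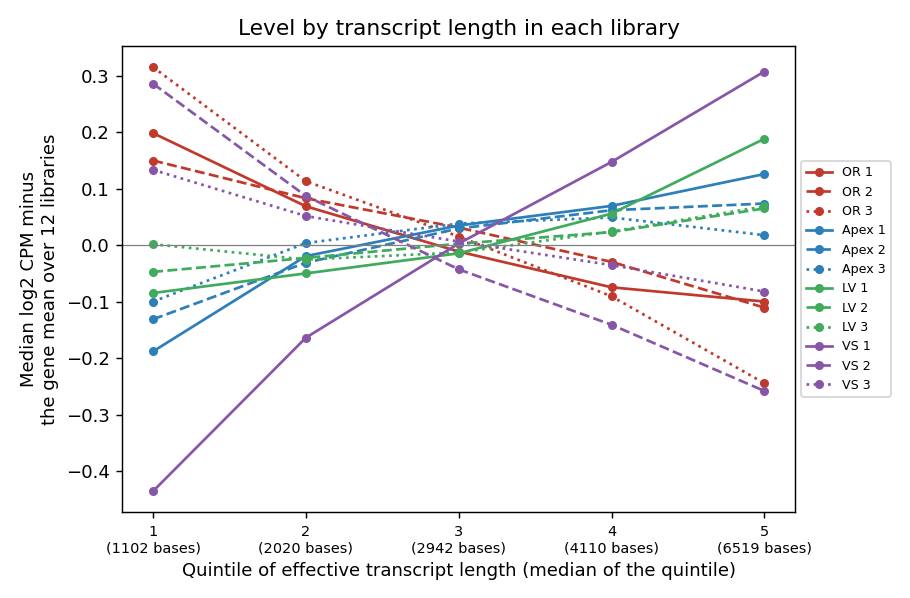
Median deviation of each library from the gene mean (log2 CPM, vertical axis) in 5 equal groups of genes by effective transcript length (horizontal axis, with each group's median length in bases); 1 line is 1 library, solid, dashed and dotted for replicates 1, 2 and 3. The 3 OR lines fall from left to right with those of VS 2 and VS 3, and the line of VS 1 rises most.

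With each library's trend over length removed, 0 genes passed in edgeR, the genes at unadjusted p under 0.05 numbered 761 in place of 1697, and those without overlap 94 higher and 107 lower. Cry1 kept its size, at a log2 difference of −0.68 ± 0.11 (edgeR adjusted p = 0.0605), as did Wdfy1 at −1.33 ± 0.27 and Gbp5 at −0.62 ± 0.15. Tomm20, which is longer than most genes of its direction at 5350 bases, moved from 0.43 to 0.59 ± 0.12, and Kcmf1 from 0.40 to 0.45 ± 0.09. Short genes came closer to 0: Srp9 went from 0.49 to 0.27 and Mrpl24 from 0.44 to 0.13.

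Most genes of protein synthesis and respiration, which are short, had a higher mean in OR. Of 79 cytosolic ribosomal protein genes 77 had a higher mean, as had 47.4% of all genes tested, with a median log2 difference of 0.42. By unadjusted p under 0.05, 36 were higher and 0 lower (background 6.34% and 6.19%). In edgeR 0 passed, and 57 were called higher without VS, as were 4.95% of all genes. Their summed level was 41961, 37609 and 44535 CPM in OR, and ran from 17886 CPM in VS 1 to 43969 CPM in VS 2 on the pooled side. The sides overlapped, since VS 2 and VS 3 (40274 CPM) stood at the level of OR. Rps14 measured 899, 802 and 982 CPM in OR against 312 to 789 (median 521), Rps7 624, 538 and 689.9 CPM against 256 to 501 (median 417), and Rps3a1 719, 675 and 781 CPM against 363 to 595 (median 537). These 3 did not overlap, while Rpl11 at 398, 332 and 411 CPM met the top of the others' range, 156 to 335 (median 246). Many ribosomal protein genes have near-identical pseudogenes, and how the authors' counting shared reads between copies is not given in the sources used here, so single values of these genes are uncertain.

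All 24 mitochondrial ribosomal protein genes had a higher mean (median 0.33), among them Mrpl28 at 65.7, 68.3 and 70.3 CPM against 39.6 to 69.4 (median 46.9) and Mrpl27 at 46.5, 40.1 and 50.5 CPM against 23.7 to 41.8 (median 33.3). Of the nuclear genes of respiratory complex I, 35 of 36 had a higher mean (47.4% over all genes; median 0.38), 13 of them at an unadjusted p under 0.05 (6.34% over all genes). The median of complexes II to IV was 0.32, with 24 of 24 higher in mean, and that of ATP synthase 0.33, with 14 of 15. Ndufc2 of complex I measured 108, 80.3 and 96.1 CPM in OR against 44.2 to 84.1 (median 64.8). Uqcrfs1, the Rieske protein of complex III, measured 163, 145 and 165 CPM against 83.4 to 146 (median 114). Atp5pb of ATP synthase measured 188, 162 and 197 CPM against 93.1 to 153 (median 134) and did not overlap. None of these genes passed in edgeR, where the 5 named had an adjusted p of 0.275 to 0.277. With the length trend removed the medians of the 5 lists were 0.02 to 0.07, and against VS 2 and VS 3 alone that of the cytosolic ribosomal proteins was −0.04.

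**Figure D4:**
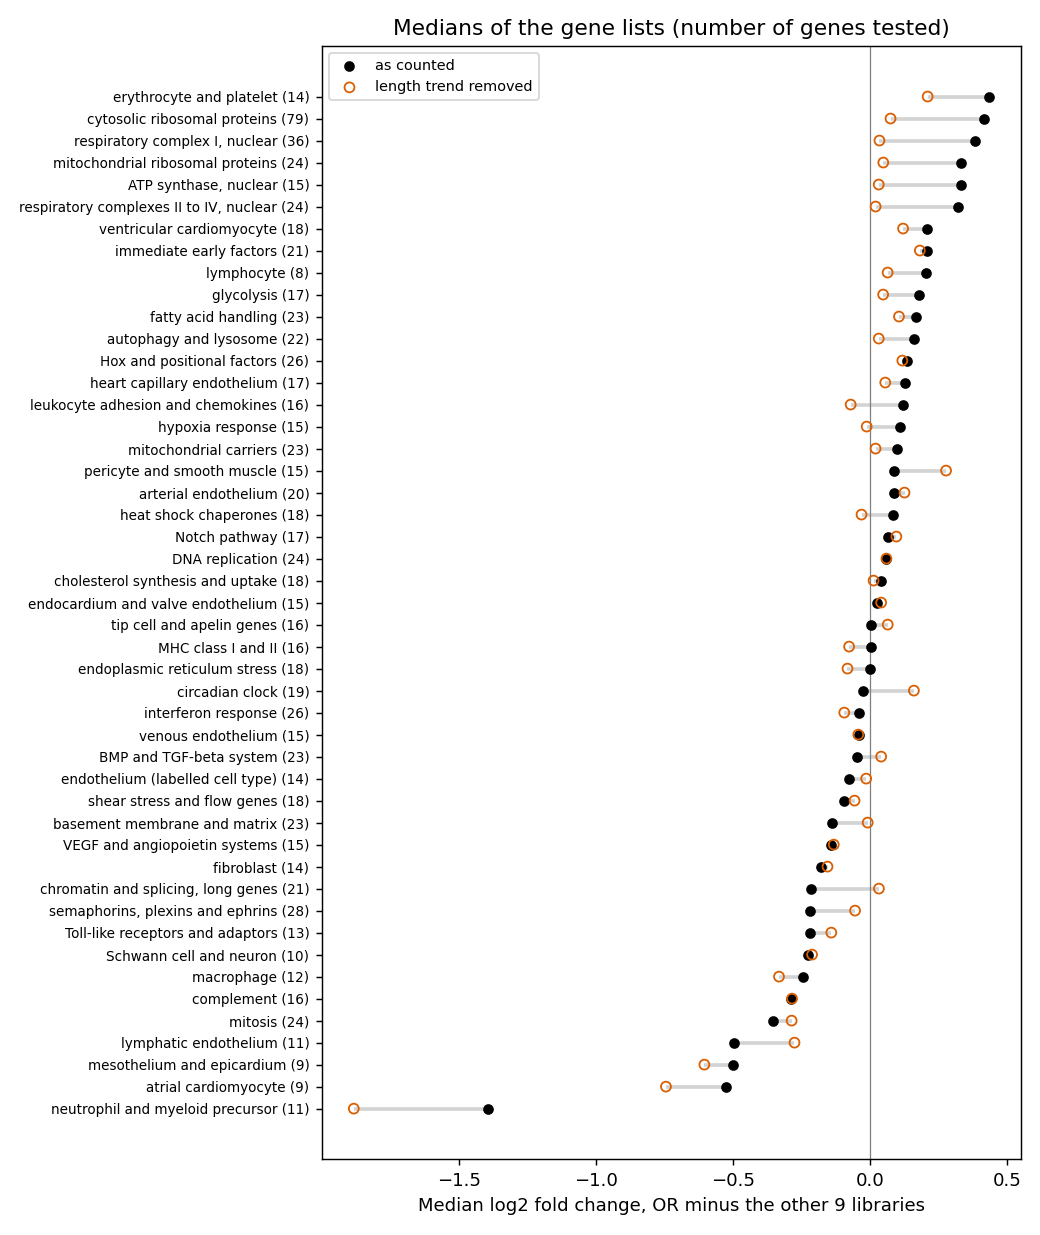
Median log2 difference of OR from the other 9 libraries in each gene list with at least 8 tested genes (horizontal axis, number of genes in brackets), as counted (filled) and with the length trend removed (open). The ribosomal and respiratory lists lie at 0.32 to 0.42 as counted and at 0.02 to 0.07 with the trend removed.

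Long genes of chromatin and splicing ran the other way. All 21 tested had a lower mean in OR (median log2 difference −0.21, and 0.03 with the length trend removed), among them Son, a scaffold of nuclear speckles, at 152, 129.8 and 135 CPM in OR against 148 to 231 (median 191), and Chd1, a chromatin remodeller, at 32.1, 35.7 and 33.5 CPM against 30.6 to 63.8 (median 49.8). Both overlapped with VS 2. Their adjusted p in edgeR was 0.282 and 0.284. The semaphorin, plexin and ephrin list, whose products guide vessels and axons, had 23 of 28 genes lower (median −0.22, and −0.06 with the trend removed).

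**Figure D5:**
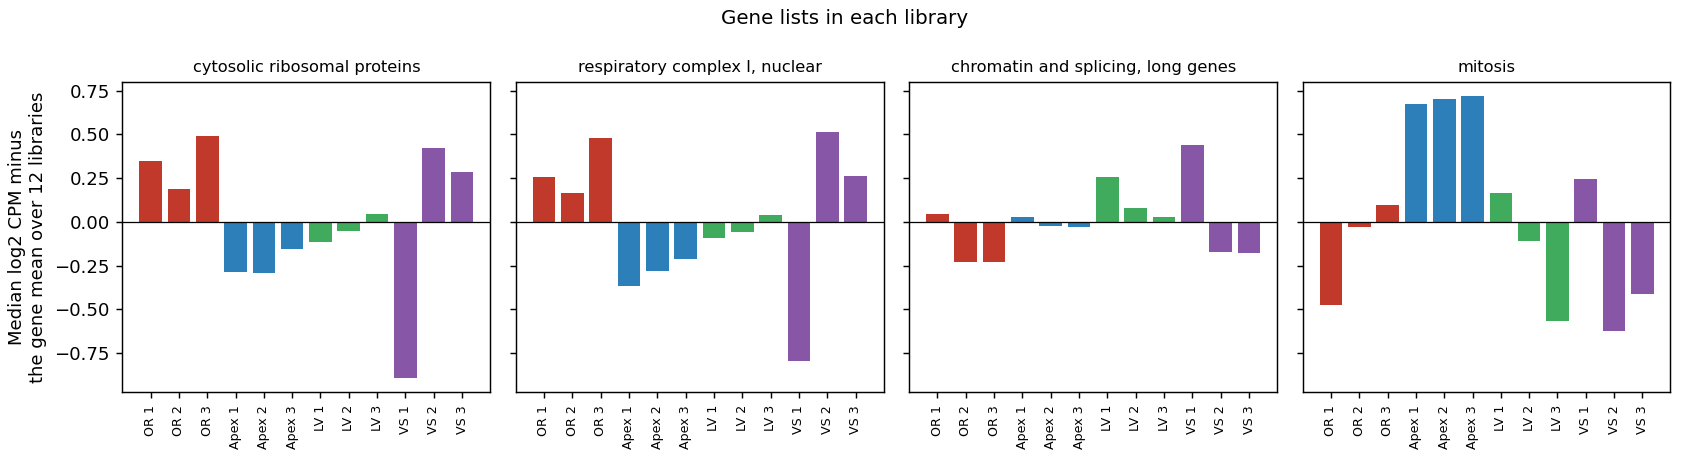
Median deviation of 4 gene lists from each gene's mean over the 12 libraries (log2 CPM, bars from 0), by library. The ribosomal and complex I bars are positive in the 3 OR libraries, VS 2 and VS 3, and slightly so in LV 3, at 0.05 and 0.04. They are most negative in VS 1, at −0.89 and −0.80. The mitosis bars are highest in Apex, at 0.68 to 0.72.

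The levels of mitotic genes were highest in Apex, and OR lay within the range of the other libraries. Of 24 genes 21 had a lower mean in OR (median log2 difference −0.35, and −0.29 with the length trend removed), with 0 at an unadjusted p under 0.05. The list's summed level was 95, 117 and 141 CPM in OR 1, 2 and 3, and 79.7 to 229 CPM in the others (median 162). The 3 Apex libraries stood highest, at 220.3, 214 and 229 CPM, and were also highest in neutrophil and myeloid precursor markers, at 25.9, 23.0 and 25.8 CPM against at most 14.3 CPM in any other library; the part of these markers in the mitotic values was not tested. Mki67, the standard marker of cycling cells, measured 6.201, 5.11 and 10.3 CPM in OR and 2.18 to 25.2 (median 12.04) elsewhere, with means of 22.2 CPM in Apex, 10.1 in LV and 10.6 in VS. Kif23, a kinesin of cytokinesis, measured 4.35, 5.18 and 5.27 CPM against 3.66 to 12.2 (median 7.23), and Cenpf, a kinetochore protein, 2.89, 3.04 and 5.31 CPM against 2.77 to 10.9 (median 4.97). Against VS 2 and VS 3 alone the direction of all 3 turned. In bulk RNA fewer cycling cells and less RNA per cycling cell cannot be told apart. DNA replication genes had a median of 0.06.

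Capillary genes differed in both directions. Of 17 genes of heart capillary endothelium 4 were higher and 3 lower by unadjusted p under 0.05 (background 6.34% and 6.19%). In edgeR 0 passed, and 5 were called higher and 3 lower without VS (4.95% and 3.82% over all genes). Rgcc, a cell cycle regulator enriched in these capillaries, measured 2185, 1822 and 1716 CPM in OR against 997 to 1649 (median 1321). Fabp4, the fatty acid binding protein of capillary endothelium, measured 4411, 5378 and 5846 CPM against 3031 to 4287 (median 3762). Btnl9, a butyrophilin-like surface protein, measured 229.9, 269 and 231 CPM against 269.6 to 381 (median 322). None of the 3 overlapped between sides, and each had an edgeR adjusted p of 0.275. With the length trend removed the log2 difference of Rgcc went from 0.52 to 0.19 and that of Fabp4 from 0.48 to 0.05, while that of Btnl9 went from −0.41 to −0.46. Other fat-handling genes were Plin2, a lipid droplet coat, at 188, 216 and 161 CPM against 109 to 178 (median 147), and G0s2, an inhibitor of the lipase ATGL, at 16.2, 12.6 and 15.7 CPM against 4.602 to 13.2 (median 8.96); in both the sides overlapped. Of 23 fat-handling genes 17 had a higher mean (47.4% over all genes). By unadjusted p under 0.05, 6 were higher and 0 lower (6.34% and 6.19% over all genes). Their sum, without the length trend removed, was 13512 to 15172 CPM in OR and 10346 to 13409 CPM elsewhere. Such a sum weighs the most highly expressed genes most, and the part of single genes in it was not tested. The list's median log2 difference was 0.17, and 0.10 with the trend removed.

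Receptors of the VEGF family had lower means in OR. Kdr, the main signalling receptor (VEGFR2), measured 1532, 1992 and 1678 CPM in OR and 2049.9 to 2445 (median 2248) in the others (log2 difference −0.38 ± 0.12 SE, edgeR adjusted p = 0.275, DESeq2 0.0316, and 0.0215 to 0.918 over all alternatives). Flt1, the decoy-like VEGFR1, measured 1104, 1122 and 923 CPM against 1213 to 1521 (median 1279). For both receptors the sides did not overlap. The co-receptor Nrp1 measured 1255, 1259 and 1266 CPM against 1178 to 2029.9 (median 1651), and Nrp2 measured 236, 194 and 154 CPM against 196 to 321 (median 240.2). Flt4, the VEGF-C receptor, measured 141, 146 and 125 CPM against 142 to 198 (median 166). These were the 5 of 15 listed VEGF and angiopoietin genes at an unadjusted p under 0.05, all lower (6.19% of all genes were), and 6 of the 15 had a higher mean. The list summed to 6816, 7408 and 6464 CPM in OR and to 7808 to 9361 CPM in the others, without overlap. The 5 receptors and co-receptors have transcripts of 6187 to 6395 bases, and with the length trend removed their log2 differences were −0.10 to −0.19.

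In BMP signalling, the target genes and a receptor differed in direction. Id1 and Id3, inhibitors of differentiation that BMP induces, measured 933, 976 and 1018 and 1687, 1553 and 1672 CPM in OR against 451 to 920.3 (median 688) and 1071 to 1607 (median 1248); Id1 did not overlap and Id3 did. Bmpr2, the type II receptor, measured 62.2, 66.2 and 70.8 CPM against 64.5 to 129 (median 91.3). The adjusted p in edgeR was 0.275, 0.334 and 0.282. Id1 and Id3 have transcripts of 814 and 826 bases and Bmpr2 of 11859, and with the length trend removed their log2 differences were 0.21, 0.02 and −0.16. Over the list of 23 tested genes 10 were higher and 13 lower.

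Among lysosomal and matrix genes, Ctsl, cathepsin L, measured 335, 316 and 335 CPM in OR against 213 to 312 (median 254), and Ctsh, cathepsin H, 19.8, 19.1 and 17.2 CPM against 4.23 to 16.02 (median 9.28). Neither overlapped, and 17 of 22 genes of the autophagy and lysosome list had a higher mean, against 47.4% of all genes; the list's median log2 difference was 0.16, and 0.03 with the length trend removed. Lamb1, a laminin chain, measured 221, 219.7 and 166 CPM against 222 to 337 (median 281), with 19 of 23 basement membrane and matrix genes lower in mean (median −0.14, and −0.0093 with the trend removed). Spock2, a proteoglycan of the matrix, measured 9.89, 13.6 and 14.5 CPM against 12.3 to 29.8 (median 23.5). In Spock2 the Apex mean, 13.7 CPM, was near that of OR and those of LV and VS were 26.1 and 25.9 CPM. Tlr4, the endotoxin receptor, measured 12.7, 15.7 and 14.2 CPM against 14.6 to 31.95 (median 20.8) and met only VS 2. C4b of complement measured 0.757, 1.09 and 0.607 CPM against 0.779 to 7.36 (median 3.25), and Apex, at a mean of 1.32 CPM, again lay near OR. Each of these had an edgeR adjusted p of 0.275 to 0.307.

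Of 20 arterial genes 1 was higher and 3 lower at an unadjusted p under 0.05, of 15 venous genes 0 and 1, and of 15 endocardial and valve genes 1 and 1, where 6.34% of all genes were higher and 6.19% lower. Nfatc1, an endocardial transcription factor, measured 83.5, 90.6 and 78.7 CPM in OR against 90.5 to 126 (median 102), and Npr3, a natriuretic peptide receptor of the endocardium, 10.6, 10.02 and 11.1 CPM against 0.904 to 11.1 (median 4.69). Npr3 was 9.62 CPM in Apex, 3.23 in LV and 4.34 in VS on average. Lymphatic genes had a median log2 difference of −0.50, and −0.28 with the length trend removed. Of 11 tested 10 were lower in mean, as were 7121 of all 13542 genes. The list's sum was 192 to 223 CPM in OR and 219 to 316 elsewhere. Its median deviation from the gene means was −0.30, −0.08 and −0.35 in OR 1, 2 and 3. VS 2 and VS 3 were as low, at −0.32 and −0.40, and VS 1 was highest at 0.88. Mmrn1 measured 6.58, 9.35 and 8.34 CPM against 6.89 to 24.7 (median 15.04). As with the mitotic genes, a smaller share of such cells and less of their RNA cannot be told apart. Hox and positional factors had 16 genes higher and 10 lower.

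The summed levels of other cell types' markers overlapped between the sides in every list except that of adipocytes. The 18 markers of ventricular cardiomyocytes, all detected, summed to 2951, 2374 and 2540 CPM in OR, and to 1084 CPM in VS 1, 2154 at the median and 4474 in VS 2 among the others. Among those higher in mean, Tcap measured 73.98, 35.3 and 43.3 CPM against 19.1 to 60.8 (median 30.3) and Mb, myoglobin, 161, 117 and 142 CPM against 38.8 to 172 (median 88.9). Over all 18 markers 12 had a higher and 6 a lower mean, with a median log2 difference of 0.21. With the length trend removed this median was 0.12, and the median length of the markers was 1343 bases. Like the respiratory lists, these markers were lowest in VS 1 and highest in VS 2 by summed level. Their part in those lists was not tested. Markers of fibroblasts summed to 2095, 1003 and 686 CPM in OR and 638 to 2617 elsewhere. Those of pericytes and smooth muscle summed to 1823, 2482 and 2386 CPM and 1420 to 2813. Of these 15 markers 11 had a higher and 4 a lower mean, with a median log2 difference of 0.09. Among the higher, Higd1b measured 17.1, 19.3 and 22.5 CPM against 11.2 to 17.9 (median 13.4) and Vtn 64.6, 104 and 78.1 CPM against 39.2 to 97.96 (median 54.1).

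Red cell and platelet markers summed to 4279, 4590 and 4182 CPM in OR and 1210 to 6652 elsewhere (median 2553). Hbb-bs, an adult beta globin whose reads may be shared with its near copy Hbb-bt, measured 801, 896 and 892 CPM against 260.1 to 1026 (median 539), and Pf4, a platelet chemokine, 11.1, 5.53 and 7.92 CPM against 2.03 to 5.94 (median 3.92). White cell markers were scarce on both sides. Ptprc, the pan-leukocyte antigen CD45, measured 0.379, 0.429 and 0.834 CPM in OR and 0.816 to 1.52 (median 1.07) in the others (edgeR adjusted p = 0.347), and 15 macrophage markers together summed to 17.4 to 32.1 CPM in OR and 22.4 to 44.8 elsewhere. Neutrophil markers summed to 5.06, 14.3 and 5.69 CPM against 7.36 to 25.9, with S100a8, a calcium-binding protein of neutrophils, at 0, 1.598 and 0.455 CPM and Mpo and Elane at 0 in all OR libraries, and lymphocyte markers to 4.83 to 8.87 CPM against 4.38 to 13.5. Mesothelial markers summed to 65.6 to 82.6 CPM against 70.5 to 133, most of it in OR from Wt1 at 63.4, 68.7 and 55.8 CPM against 62.5 to 118 (median 83.8). Atrial cardiomyocyte markers summed to 772, 482 and 363 CPM in OR and 360 to 917 elsewhere. Of 10 adipocyte markers, Adipoq and Retn stood at 0 in OR, and the sum of the list, 4602 to 6004 CPM in OR and 3150 to 4432 elsewhere, was nearly that of Fabp4, which endothelium itself expresses.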

How the data were processed

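The 12 heart libraries of endothelial cells, 3 each of OR, Apex, LV and VS, were analysed from the heart table, which held 17513 genes. Its read count columns hold expected counts as the authors deposited them, without normalization (80.8% to 83.5% of the values were whole), and these were rounded to whole numbers. Its TPM columns, which the authors deposited beside the counts per the file headers, served only to read effective length from the ratio of count to TPM. The genome build was mm10, per the submitters' processing notes; aligner, counting program and annotation are not given in the sources used here. All per-library columns were matched to samples through the titles (0 unmatched), with OZ columns taken as the region titled OR.

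OR was compared with the 9 other libraries by edgeR 4.0.16 (R 4.3.3) with TMM scaling, filterByExpr and a robust quasi-likelihood F test, adjusted by Benjamini-Hochberg over all genes tested; the spread on the pooled side includes the differences between its regions. On simulated counts with these depths, the test recovered 29.9% of genes changed 1.5-fold, 67.2% at 2-fold and 90.9% at 4-fold, with 8 false calls among 13380 genes. The simulation drew each gene independently, without a trend over length or differences between the pooled regions. Its rates therefore need not hold for these libraries. DESeq2 1.42.0 and voom (limma 3.58.1) were alternatives, as were other scaling, filters, a replicate block, regions or libraries left out, and removal of each library's loess trend over length; no length was had for 422 genes. DESeq2 gave no adjusted p for 3414 genes. The genes named were, by rule, 15 per direction of smallest p without overlap, up to 6 per list by smallest p, and Pecam1, Cdh5, Kdr, Ptprc and Mki67; other markers are named where they stood at 0. Members, lists and tests were chosen with earlier results of these data known. The list of 13 mitochondrially encoded transcripts was not analysed here. Coordinates and promoters are from RefSeq, GRCm38.p6, the build mm10 names.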

Additional observations from a re-analysis of the deposited data

Results flagged for a closer look

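A gap was called large by a cut that about 1 in 20 groups of independent values from 1 population would pass. The 9 pooled libraries came from 3 regions and the genes were partly chosen by p. That rate therefore gives no expected number here. On the pooled side, 15 of 133 values had a library whose gap to the next was large for a group of 9. VS 1 was the library in 7 of them, with Rpl15 at 424 CPM (the other 8 at 579 to 744), Rpl11 at 156 (230.5 to 335), Rps7 at 256 (396 to 501), Rps14 at 312 (505 to 789), Rps3a1 at 363 (494 to 595) and Sar1b at 41.5 (49.2 to 57.7), all lowest, and Golga4 highest at 81.2 CPM (55.4 to 63.9). VS 2 was lowest for Parp14 at 44.6 CPM (59.8 to 75.5), Gbp7 at 119 CPM (170.1 to 240.0) and Clock at 15.6 CPM (27.9 to 34.8). LV 1 was highest for Setd7, at 27.0 CPM (17.2 to 21.1), and Apex 3 for Vtn, at 98.0 CPM (39.2 to 61.3). Among summed lists, Apex 3 was highest for endoplasmic reticulum stress genes at 4720 CPM (3315 to 3912) and for Toll-like receptors and adaptors at 564 CPM (359 to 450.3), and LV 3 was lowest for the Notch pathway at 1852 CPM (2002 to 2158).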

How the results depend on the processing

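The count of 0 genes past edgeR's threshold held with 1 mean per region, RLE size factors, no filter, a filter at 5 CPM, the length trend removed, and Apex or LV left off the pooled side. It became 57 with DESeq2, 1062 with voom, 1175 without VS, 454 without VS 1 and VS 2, 1 (Cry1) with the length trend removed without VS 2, 6 with voom after that removal, and 7 against VS 2 and VS 3 alone. Leaving out 1 library gave 0 to 64, the 64 without VS 2; at unadjusted p under 0.05 it gave 750 (without OR 3) to 2850 genes (without VS 2) in place of 1697. The length trend removed without VS gave 0. These 3 combinations with length removal, the pooled side without VS 1 and VS 2, and the fit against VS 2 and VS 3 were chosen after seeing the data. With each region's mean taken off, same-numbered OR and other libraries correlated at r = −0.053 to 0.23. Of these 9 pairs 1 was above 0.1 and 1 under 0. Differently numbered ones correlated at r = −0.17 to 0.18, with 3 of 18 pairs above 0.1 and 12 under 0. These values do not settle whether the numbers pair the samples. With the replicate block 0 genes passed and 2016 had an unadjusted p under 0.05. With RLE scaling 165 genes lay above and 175 below without overlap, in place of 224 and 137.

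Of 85 named genes 10 changed sign under some setting. Pecam1 (−0.031) went to 0.011 with the length trend removed, 0.016 also without VS 2, 0.023 in voom after that removal, 0.037 without Apex and 0.011 against VS 2 and VS 3, and to −0.073 to 0.011 with 1 library left out. Cdh5 (−0.014) went to 0.085 with the length trend removed, 0.084 also without VS, 0.12 also without VS 2, 0.10 in voom after that removal and 0.016 without Apex, and to −0.050 to 0.017 with 1 library left out. Against VS 2 and VS 3 alone Mki67 went from −0.99 to 1.11, Cenpf from −0.69 to 0.057, Kif23 from −0.53 to 0.21, Tcap from 0.68 to −0.0065, Mb from 0.58 to −0.058 and Hbb-bs from 0.71 to −0.063. Nr1d1 (1.28) ran from −0.13, without OR 1, to 1.76 with 1 library left out, and Fabp4 went from 0.48 to −0.00061 with length removed without VS. The causes were not tested. In the simulation, which had 3 OR libraries but no trend over length, the test recovered 29.9% of genes changed 1.5-fold. How many it would recover in these libraries was not tested.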
